A study of Mus musculus with 6 samples.

Results

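The genes described here are 10 genes of alternative macrophage activation and arginine metabolism, namely Il4ra, Il1rl1, Cd200r1, Socs3, Retnla, Chil3, Arg1, Nos2, Glul and Tgm2. They were taken by gene symbol from the array annotation, which gave 16 probes out of 56601, and 12 of the 16 exceeded background clearly on both replicates in at least 1 cell fraction. This left 9 of the 10 genes among the 20817 genes tested, since the only probe of Arg1 did not reach that level.

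The data are 6 one-colour arrays of RNA from cells sorted out of sublingual mucosa, taken from mice of the inbred strain BALB/c, with 2 arrays for each of 3 fractions. Fr3 was F4/80+CD206hi, Fr2 was CD11c-F4/80+CD206- and Fr1 was CD11c+CD206-. All mice of all 3 fractions had received 2 paintings of the mucosa with the fluorescent contact sensitiser FITC, so there was no unpainted group, and the protocol names the dorsal tongue as the tissue that was digested for 30 min. The replicates of a fraction were independent experiments according to the series design; the age of the mice and how many were pooled for a sort are not given in the sources used here.

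Macrophages exposed to the type 2 cytokines IL-4 and IL-13 signal through a receptor that contains IL-4Rα and activates the transcription factor STAT6. In mouse macrophages this state is recognised by arginase 1, the resistin-like protein RELMα (Retnla) and the chitinase-like protein Ym1 (Chil3), and it is contrasted with a classical state in which inducible nitric oxide synthase (Nos2) uses the same substrate, arginine. IL-33, read by the receptor ST2 (Il1rl1), can amplify the alternative state, and CD200R1 and SOCS3 are inhibitors that act at the cell surface and inside the cell.

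The probe sequences matter here because the genes with several probes did not always read alike. They matter also because the 2 Fr3 arrays, and to a lesser extent the 2 Fr1 arrays, differed from each other with the share of T in a probe. Probes are 60 bases long, were placed by the files on the mouse build mm9, and are read 5′ to 3′; no exon or UTR annotation of a probe was used here. The following probes, in full or as a stretch of 30 bases, carry the comparisons below, with runs of at least 3 T and the letters AATAAA, which are those of a polyadenylation signal, in capitals.
Retnla, bases 1 to 30 of the probe at chr16:48844447-48844506, plus strand: gatgaatctaacaaaaactgcagtctcaat
Chil3, bases 31 to 60 of the probe at chr3:105950485-105950544, minus strand: atgcttgTTTcttgctctcacAATAAAttc
Arg1, whole probe at chr10:24636194-24636253, minus strand: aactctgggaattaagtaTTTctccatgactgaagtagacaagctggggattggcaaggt
Glul, whole probe from transcript base 1062 at chr1:155755109-155755168, plus strand: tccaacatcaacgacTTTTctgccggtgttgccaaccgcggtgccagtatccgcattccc
Glul, whole probe from transcript base 408 at chr1:155751765-155751824, plus strand: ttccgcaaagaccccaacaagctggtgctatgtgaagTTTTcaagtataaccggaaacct
Glul, bases 31 to 60 of the probe from transcript base 2718 at chr1:155756765-155756824, plus strand: TTTcctctgacttgTTTcTTTgtggttccc
Il4ra, whole probe from transcript base 466 at chr7:132712550-132712609, plus strand: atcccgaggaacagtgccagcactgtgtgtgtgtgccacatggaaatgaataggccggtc
Cd200r1, whole probe from transcript base 1062, split over chr16:44792935-44794321, plus strand: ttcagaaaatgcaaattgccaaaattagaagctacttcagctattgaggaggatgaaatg
Cd200r1, bases 31 to 60 of the probe from transcript base 1470 at chr16:44794670-44794729, plus strand: gcAATAAAgtatgatgaaaactgagTTTcc
Il1rl1, bases 1 to 30 of the probe from base 2583 of variant 2 at chr1:40504769-40504828, plus strand: ctctgtaacaggatcTTTTgtctagaTTTc
Il1rl1, bases 1 to 30 of the probe from base 5226 of variant 1 at chr1:40522187-40522246, plus strand: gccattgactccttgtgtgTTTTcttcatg

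All levels below are log2 of the processed signal minus the 75th percentile of the array, so 0 is that percentile itself, and the 2 values of a fraction are replicates 1 and 2 in that order. Differences are log2 with their SE from a limma fit over all 3 fractions, and adjusted p-values are Benjamini-Hochberg values over the 20817 genes, called under 0.05. Of the spots, 44.6% to 52.4% were well above background on an array and 0 were saturated. Fr3 and Fr1 were hybridised on 1 slide and scanned together, and Fr2 was on another slide, so any difference that involves Fr2 cannot be told apart from the slide. The 2 Fr3 arrays correlated less (r = 0.796 across genes, which are not independent replicates) than those of Fr2 (0.898) and Fr1 (0.883). At probes with over 40% T the median difference between the second and the first array was −1.71 in Fr3, −0.93 in Fr1 and 0.04 in Fr2. At probes with at most 15% T it was 0.69 in Fr3, 0.47 in Fr1 and 0.23 in Fr2. The sort antigens' own genes followed the gates in part. Mrc1, which encodes CD206, read 3.78 and 2.67 in Fr3, 0.64 and 0.33 in Fr2 and −4.09 and −3.50 in Fr1, while Adgre1, which encodes F4/80, read 5.46 and 5.32 in Fr3, 5.94 and 5.97 in Fr2 and 4.49 and 4.39 in Fr1. Itgax, which encodes CD11c, read 0.20 and 0.95 in Fr3, 2.77 and 1.20 in the Fr2 arrays sorted as CD11c-negative, and 2.71 and 2.35 in Fr1. Of 8 macrophage markers, 7 were well above background on both arrays in Fr3, 6 in Fr2 and 7 in Fr1. Mertk was well above background on 1 of 2 Fr3 arrays and on none of Fr2 or Fr1.

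**Figure D1:**
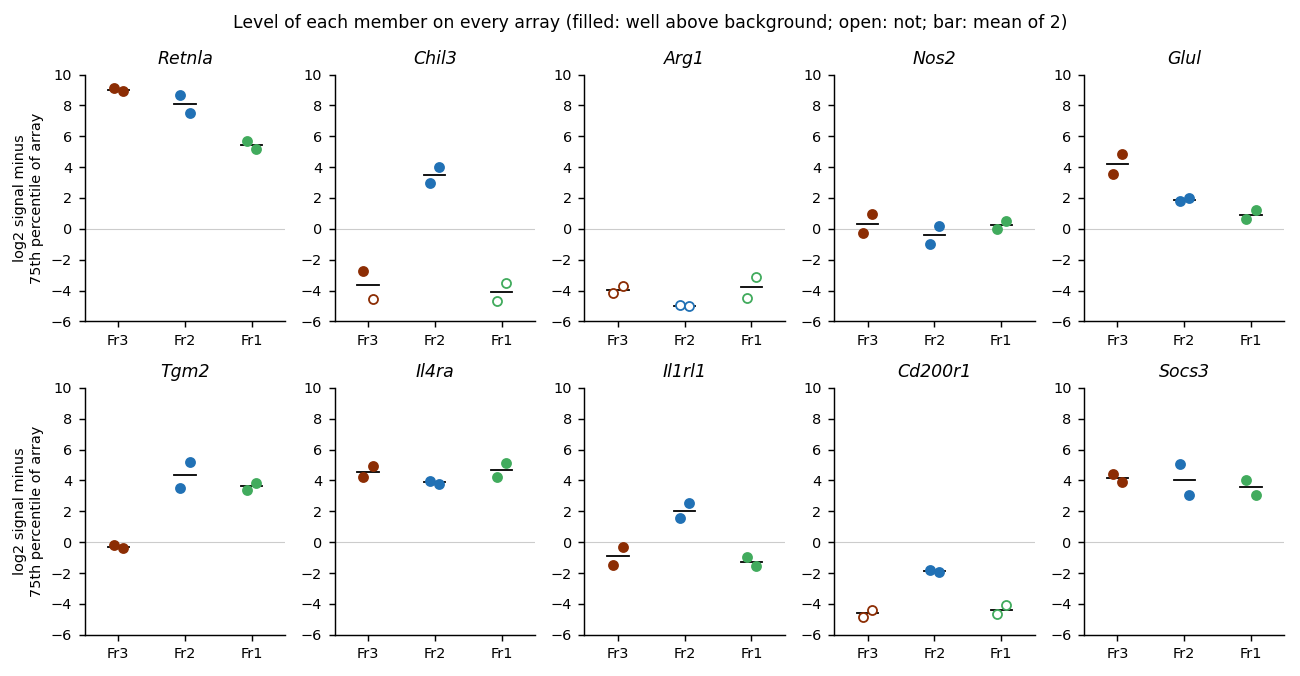
Level of each of the 10 genes on the 6 arrays, as log2 signal minus the array's 75th percentile (y axis), in Fr3, Fr2 and Fr1 (x axis); points are arrays, filled where the probe was well above background, and bars are means of 2 arrays. Retnla lies highest in Fr3, Chil3, Il1rl1 and the tested Cd200r1 probe lie highest in Fr2, Glul lies highest in Fr3, and Tgm2 lies lowest in Fr3.

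The 10 genes did not share 1 pattern. Retnla and Glul were highest in the CD206-high macrophages of Fr3, by 11.9-fold and 9.51-fold over Fr1. Chil3 and Il1rl1 were highest in Fr2, as was Cd200r1 at its tested probe but not at its other one, and Tgm2 was low in Fr3 alone, at 0.0660 of its level in Fr1. The differences of Il4ra, Socs3 and Nos2 lay between −0.78 and 0.74, and Arg1 was not well above background on any of the 6 arrays (0 of 6). None of these differences passed the adjusted threshold: 0 of the 9 tested genes were called in any of the 3 comparisons, with lowest adjusted p-values (limma) of 0.197 for Fr3 minus Fr1, 0.0883 for Fr3 minus Fr2 and 0.193 for Fr2 minus Fr1. In these bulk sorted samples, fewer cells of a type and less RNA per cell cannot be told apart.

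The share of all tested genes that was called sets these counts in context. It was 0.0048% for Fr3 minus Fr1 and for Fr3 minus Fr2, which is 1 gene in each (Gm2042, a gene model known by number, named after its values were seen), and 0% for Fr2 minus Fr1. For Fr3 minus Fr1, 2 genes lay higher in Fr3 with no overlap between arrays (Retnla, Glul) and 1 lay lower (Tgm2), or 3 of 9, against 35.7% of all genes in either direction (21.9% higher, 13.7% lower). For Fr3 minus Fr2 they did not overlap for 3 genes higher in Fr3 (Glul, Retnla, Il4ra) and 4 lower (Chil3, Tgm2, Il1rl1, Cd200r1), or 7 of 9, against 42.1% of all genes (22.7% higher, 19.5% lower). For Fr2 minus Fr1 they did not overlap for 5 genes higher in Fr2 (Chil3, Il1rl1, Retnla, Cd200r1, Glul) and 1 lower (Il4ra), against 44.8% of all genes (22.3% higher, 22.5% lower). The share for Fr3 minus Fr1 is thus near that of all genes and says nothing particular about these 9. Without the first Fr3 array 5 of the 9 genes did not overlap for Fr3 minus Fr1, and without the second 7 did not. Of all genes, 46.2% then lay higher and 28.3% lower without the first array, and 29.9% higher and 35.3% lower without the second, so nothing particular to the 9 genes can be read from these counts either.

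At an unadjusted p under 0.05 (limma), 2 genes were higher and 1 lower in Fr3 than in Fr1, where 8.12% of all genes reached that level (5.34% higher, 2.78% lower). Between Fr3 and Fr2, 1 gene was higher and 4 were lower in Fr3, where 8.92% of all genes did (4.08% higher, 4.83% lower). Between Fr2 and Fr1, 4 were higher in Fr2 and 0 lower, where 9.79% of all genes did (6.46% higher, 3.33% lower). The median log2 difference of the 9 genes was 0.35, 0.10 and 0.97 in the 3 comparisons in that order, against 0.05, 0.08 and −0.03 over all genes.

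**Figure D2:**
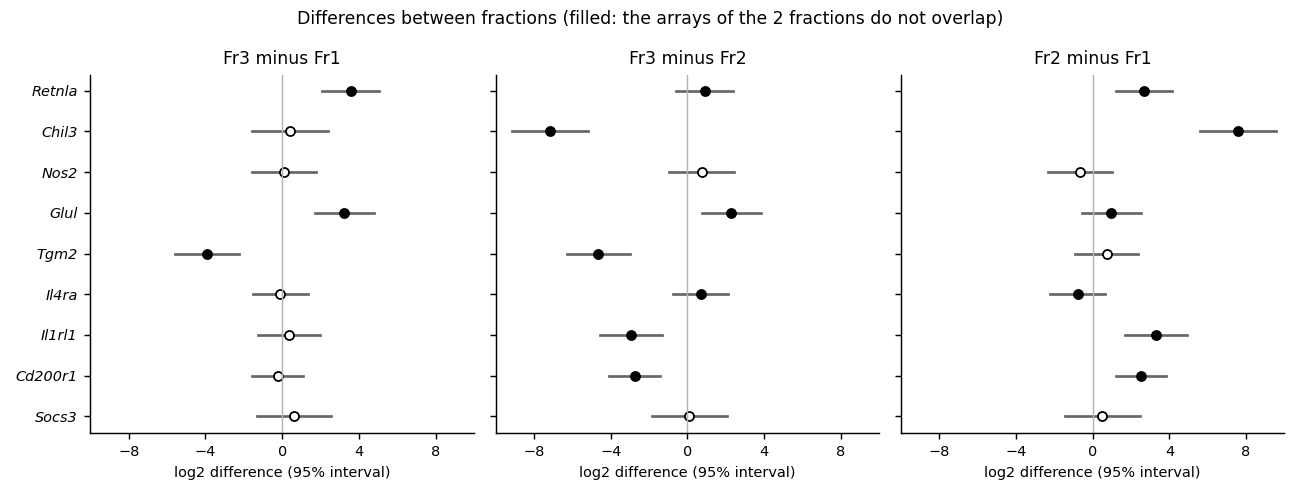
Log2 differences of the 9 tested genes (x axis) for Fr3 minus Fr1, Fr3 minus Fr2 and Fr2 minus Fr1, with 95% intervals from the limma fit as horizontal lines; filled points have arrays that do not overlap between the fractions. The intervals of Retnla, Glul and Tgm2 lie away from 0 for Fr3 minus Fr1, and that of Chil3 reaches from −9.15 to −5.19 for Fr3 minus Fr2; dim probes are drawn at their measured means.

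Among the receptors, Il4ra encodes the chain shared by the receptors for IL-4 and IL-13. Its brighter probe, from transcript base 466, read 4.20 and 4.93 in Fr3, 3.96 and 3.79 in Fr2 and 4.20 and 5.11 in Fr1. The Fr3 and Fr1 arrays overlapped and the Fr2 arrays lay just below both. Fr3 minus Fr1 was −0.09 ± 0.60 (adjusted p = 0.988, limma; 95% interval −1.53 to 1.35), an interval that leaves room for a change of more than 2-fold either way. Fr3 minus Fr2 was 0.69 ± 0.60 (adjusted p = 0.691, limma) and Fr2 minus Fr1 was −0.78 ± 0.60 (adjusted p = 0.713, limma).

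The dimmer Il4ra probe, from base 3242 (chr7:132721137-132721196), gave another order. It read −0.66 and −0.35 in Fr3, −1.55 and −1.38 in Fr2 and −1.54 and −2.13 in Fr1, and the second Fr1 array was not well above background. Fr3 lay above both other fractions by 1.33 over Fr1 and 0.96 over Fr2 (adjusted p = 0.576 and 0.592 with every probe tested on its own, limma). With the mean of both probes in place of the brighter one, Fr3 minus Fr1 turned to 0.62, so the direction for Il4ra between Fr3 and Fr1 depends on the probe. At the brighter probe alone it turned to 0.37 without the second Fr1 array and to 0.28 without the first Fr3 array.

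Around Il4ra, the list of IL-4 and IL-13 receptor signalling had 13 other tested genes and 0 were called. The arrays did not overlap for 3 higher and 2 lower in Fr3 than in Fr1, for 2 and 2 against Fr2, and for 5 higher and 2 lower in Fr2 than in Fr1, with medians of −0.16, −0.02 and −0.003. At an unadjusted p under 0.05 (limma) 1 of them differed, lower in Fr2 than in Fr1, and that was Il13, a ligand gene, at −1.48 ± 0.57. Over all genes, 35.7%, 42.1% and 44.8% did not overlap in either direction in the 3 comparisons in that order. At that p (limma) the shares of all genes were 8.12%, 8.92% and 9.79%. The kinase gene Jak1, which acts downstream of the receptor, was higher by 1.02 ± 0.58 in Fr3 than Fr1 (adjusted p = 0.628, limma). Il13ra1, the partner chain for IL-13, was −1.09 ± 0.52 for Fr3 minus Fr2 (adjusted p = 0.597, limma). The gene whose pattern over the 6 arrays was closest to Il4ra was Il2rg, the common cytokine receptor chain that pairs with IL-4Rα, with a root mean square difference of 0.31 log2 after centring, among 107 genes compared. Pycr1, from the list of arginine, nitric oxide and polyamine metabolism, was nearly as close, at 0.32 log2.

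Il1rl1 encodes ST2, which exists as a membrane receptor for IL-33 and as a soluble decoy made from a shorter transcript. The probe from base 5226 of variant 1 read −1.50 and −0.30 in Fr3, 1.57 and 2.52 in Fr2 and −0.94 and −1.56 in Fr1. Both Fr2 arrays lay above all 4 others, and Fr3 and Fr1 overlapped. Fr2 minus Fr1 was 3.30 ± 0.68, or 9.86-fold (adjusted p = 0.309, limma), and Fr3 minus Fr2 was −2.95 ± 0.68 (adjusted p = 0.271, limma). With normexp background correction and quantile normalization these differences were 1.41 and −1.33. Fr3 minus Fr1 was 0.35 ± 0.68 (adjusted p = 0.932, limma) and turned to −0.25 without the second Fr3 array. The probe has 43.3% T, and on it the second Fr3 array read 1.20 relative to the first. Il1rl1 therefore had no value in the setting with probes over 30% T left out.

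The other Il1rl1 probes gave almost no level. The variant 2 probe lies 17418 bases upstream of the bright one and was well above background on 1 array only, the second Fr2 array. The other variant 1 probe, 2173 bases before the bright one (chr1:40520014-40520073), was not well above background on any array (0 of 6). Of 5 other tested genes of IL-33 receptor signalling 0 were called, and the arrays did not overlap for 2 higher and 1 lower in Fr3 than in Fr1, for 1 and 0 against Fr2, and for 1 higher and 3 lower in Fr2 than in Fr1, with medians of −0.57, −0.08 and −1.05. Only 1 of the 5, Il33, was under an unadjusted p of 0.05 (limma), higher in Fr3 than in Fr1 and in Fr2. Shares over all genes were 35.7%, 42.1% and 44.8% for no overlap and 8.12%, 8.92% and 9.79% at that p (limma). Il33 itself, the ligand gene, was dim, at −2.71 and −1.97 in Fr3, −5.11 and −5.17 in Fr2 and −3.49 and −4.30 in Fr1. It was well above background on both Fr3 arrays and on none of Fr2 or Fr1, and Fr3 exceeded Fr2 by at least 1.53-fold (adjusted p = 0.226, limma), while no fold can be given over Fr1.

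Cd200r1 encodes the receptor for CD200, an inhibitory receptor of myeloid cells. Its probe from base 1062, whose 60 bases are split over 1387 bases of the genome, read −4.86 and −4.38 in Fr3, −1.81 and −1.93 in Fr2 and −4.68 and −4.08 in Fr1. It was well above background on the 2 Fr2 arrays alone. Fr2 exceeded Fr3 by at least 1.65-fold (adjusted p = 0.215, limma) and Fr1 by at least 1.31-fold (adjusted p = 0.322, limma). With normexp and quantile normalization the measured differences were −0.22 for Fr3 minus Fr2 and 0.21 for Fr2 minus Fr1, against −2.75 and 2.51 in the values above. The probe was dim in both Fr3 and Fr1, so no difference between them is given. Such a bound sets the mean of the brighter fraction against a floor in the dimmer one. On each array the floor is the dim probe's value or the weakest signal of any probe well above background, whichever is higher. An adjusted p-value printed beside a bound, here or elsewhere, tests the measured difference and not the bound.

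The second Cd200r1 probe, from base 1470, had another order. It read −2.14 and −2.42 in Fr3, −4.94 and −4.9996 in Fr2 and −3.81 and −4.19 in Fr1, and was well above background on the first Fr3 array only, so it was not among the probes tested. Both Fr3 values lay above both Fr2 values here, below background on 3 of these 4 arrays, and the 2 probes thus ordered Fr3 and Fr2 differently. Of 4 other tested genes of the CD200 receptor axis 0 were called, with arrays that did not overlap for 2 higher and 0 lower in Fr3 than in Fr1, for 2 and 1 against Fr2, and for 1 higher and 2 lower in Fr2 than in Fr1, with medians of 0.21, 0.32 and −0.63. At an unadjusted p under 0.05 (limma) 1 of the 4 was higher in each comparison and 0 were lower. Over all genes 35.7%, 42.1% and 44.8% did not overlap, and 8.12%, 8.92% and 9.79% were under that p (limma). Dok2, an adaptor that CD200R1 recruits, read 1.15 and −0.43 in Fr3, 0.87 and 0.75 in Fr2 and −2.33 and −2.52 in Fr1, with neither Fr1 array clearly above background, so that Fr2 exceeded Fr1 by at least 8.18-fold (adjusted p = 0.309, limma). Cd200r4 and Cd200 did not reach the level needed for a test.

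**Figure D3:**
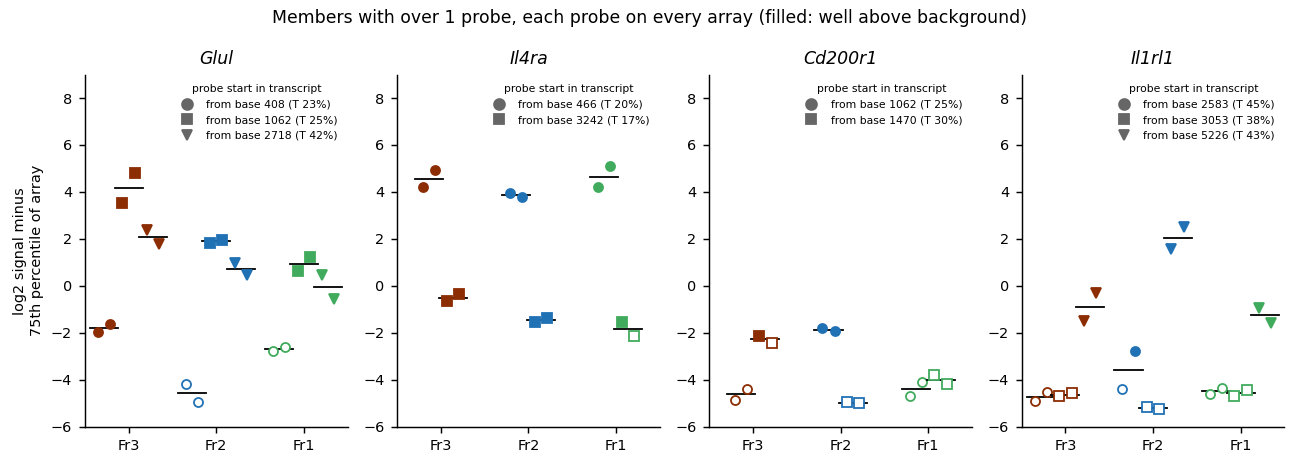
Levels of every probe of the 4 genes with more than 1 probe, as log2 signal minus the array's 75th percentile (y axis), in Fr3, Fr2 and Fr1 (x axis); symbols tell probes apart by their first transcript base and T content, filled symbols were well above background, and bars are means of 2 arrays. The Cd200r1 probes order Fr3 and Fr2 differently, the dimmer one with 1 filled symbol only, and the Glul probes all lie highest in Fr3.

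Socs3 encodes a cytokine-inducible inhibitor of receptor signalling that is itself switched on by STAT3. Its probe (chr11:117827480-117827539, minus strand) read 4.41 and 3.89 in Fr3, 5.06 and 3.03 in Fr2 and 4.04 and 3.05 in Fr1. All 3 fractions overlapped. The differences were 0.60 ± 0.81 for Fr3 minus Fr1, 0.10 ± 0.81 for Fr3 minus Fr2 and 0.50 ± 0.81 for Fr2 minus Fr1 (adjusted p = 0.878, 0.971 and 0.881, limma). The last turned to −0.51 without the first Fr2 array, and Fr3 minus Fr2 turned to −0.91 without the second Fr2 array and to −0.16 without the first Fr3 array.

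Of 14 other tested genes of the SOCS family and STAT3 inputs 0 were called. Arrays did not overlap for 4 higher and 3 lower in Fr3 than in Fr1, for 3 and 1 against Fr2, and for 2 higher and 3 lower in Fr2 than in Fr1, with medians of 0.07, 0.09 and 0.04. The unadjusted p was under 0.05 (limma) for 1 higher and 0 lower in Fr3 than in Fr1, for 1 and 1 against Fr2, and for 1 higher and 0 lower in Fr2 than in Fr1. Shares over all genes were 35.7%, 42.1% and 44.8% for no overlap and 8.12%, 8.92% and 9.79% at that p (limma). Lifr, the receptor chain for leukaemia inhibitory factor, was higher by 3.57 ± 0.59 in Fr3 than Fr1 (adjusted p = 0.175, limma). The gene closest to Socs3 in pattern was the transcription factor gene Irf4, at 0.22 log2 among the 107 genes.

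Retnla encodes RELMα, a secreted protein of alternatively activated macrophages. It was well above background on every array, with 9.11 and 8.90 in Fr3, 8.70 and 7.52 in Fr2 and 5.69 and 5.19 in Fr1. No array of one fraction overlapped with those of another, and the order was Fr3, Fr2, Fr1. Fr3 minus Fr1 was 3.57 ± 0.62, or 11.9-fold (adjusted p = 0.197, limma; 95% interval 2.09 to 5.05). Fr2 minus Fr1 was 2.67 ± 0.62, or 6.37-fold (adjusted p = 0.325, limma), and Fr3 minus Fr2 was 0.90 ± 0.62, or 1.86-fold (adjusted p = 0.639, limma). The last difference lay within the spread between the 2 Fr2 arrays. Without the first Fr3 array Fr3 minus Fr1 was 3.46 and passed (adjusted p = 0.0432, limma), in a fit that takes the lone Fr3 array to vary like the other fractions. Retnla has 30.0% T in its probe and differed by −0.21 between the second and first Fr3 arrays.

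Chil3 encodes the secreted chitinase-like lectin Ym1 and had a different distribution from Retnla. It read −2.76 and −4.57 in Fr3, 2.98 and 4.03 in Fr2 and −4.68 and −3.51 in Fr1. Both Fr2 arrays stood far above the rest, and the probe was well above background on 1 of 2 Fr3 arrays and 0 of 2 Fr1 arrays. Fr2 exceeded Fr1 by at least 54.5-fold (adjusted p = 0.193, limma), and the measured means of Fr3 and Fr2, with 1 of 2 Fr3 arrays above background, differed by −7.17 ± 0.83 (adjusted p = 0.0883, limma). With normexp and quantile normalization the measured differences were far smaller, at 2.92 for Fr2 minus Fr1 and −2.90 for Fr3 minus Fr2. Fr3 and Fr1 overlapped, at 0.43 ± 0.83 (adjusted p = 0.932, limma), and this turned to −0.48 without the first Fr3 array and to −0.15 without the first Fr1 array. Without the first Fr3 array, the 1 left was not well above background, and Fr2 exceeded it by at least 55.6-fold. The measured Fr3 minus Fr2 difference was then −8.08. The bound for Fr2 over Fr1 rests on the same arrays with either Fr3 array left out, as does the measured difference of 7.60. The probe has 38.3% T, and the second Fr3 array read −1.82 relative to the first.

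The paralogs of Retnla and Chil3 are given beside them, since such genes are alike in sequence and cross-hybridisation was not tested. Retnlg read 0.85 and 0.50 in Fr3, 5.91 and 6.53 in Fr2 and 2.52 and 1.98 in Fr1, so its order of fractions was not that of Retnla. Fr3 minus Fr2 was −5.54 ± 0.57 for Retnlg (adjusted p = 0.0827, limma). Retn read 2.15 and 2.56 in Fr3, 1.30 and 2.35 in Fr2 and 1.75 and 2.60 in Fr1, with overlap throughout. Chil4, the nearest relative of Chil3, was not tested, at −3.31 and −4.45 in Fr3, −2.86 and −2.35 in Fr2 and −4.58 and −4.32 in Fr1. Chil1 read −1.21 and −3.58 in Fr3, 1.27 and 1.14 in Fr2 and 0.43 and −3.77 in Fr1. Among the 107 pathway genes compared over the 6 arrays, Retnlg was closest in pattern to Chil3, at 1.63 log2. Lifr was closest to Retnla among them, at 0.30 log2. Genes listed only as cell type markers were not compared.

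**Figure D4:**
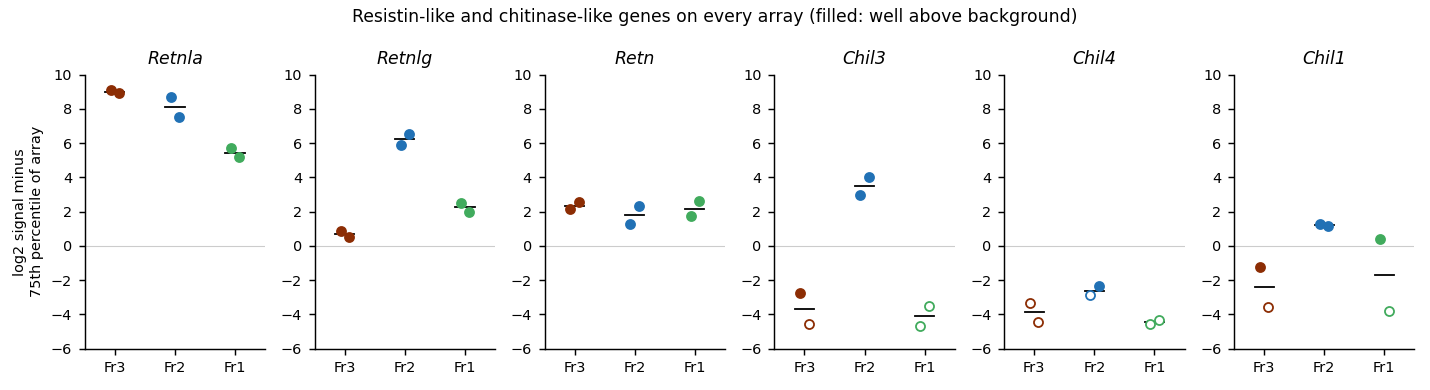
Levels of 3 resistin-like and 3 chitinase-like genes on the 6 arrays, as log2 signal minus the array's 75th percentile (y axis), in Fr3, Fr2 and Fr1 (x axis); filled points were well above background and bars are means of 2 arrays. Retnla is highest in Fr3 while Retnlg and Chil3 are highest in Fr2.

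Retnlg is also made by neutrophils and Chil3 by neutrophils and monocytes, and the summed markers of those cells were, like Chil3, highest in Fr2. Both sums were also higher in Fr1 than in Fr3, while Chil3 overlapped between these fractions. The summed signal of 9 neutrophil markers, Retnlg among them, in multiples of the array's 75th percentile, was 48.7 and 22.9 in Fr3, 487 and 533 in Fr2 and 114 and 120 in Fr1; 5 of the 9 were well above background on both arrays in Fr3, 8 in Fr2 and 6 in Fr1, and the defining marker Ly6g was on 1 of 2 Fr2 arrays and on none of Fr3 or Fr1. The sum of 5 monocyte markers was 5.12 and 10.01 in Fr3, 74.4 and 76.4 in Fr2 and 30.2 and 12.5 in Fr1. The sum of 8 eosinophil markers was 7.32 and 12.5 in Fr3, 79.9 and 157 in Fr2 and 19.6 and 20.2 in Fr1, with the granule protein gene Prg2 not well above background in Fr3. Their part in the levels of Chil3, Il1rl1 and Cd200r1 in Fr2 was not tested. Mast cells and basophils, which carry ST2, gave sums of 2.52 and 3.00 in Fr3, 2.60 and 9.26 in Fr2 and 3.41 and 5.13 in Fr1 over 8 markers, of which 2 (Kit and Tpsb2) were well above background on both arrays in each fraction, and their defining genes Cpa3 and Fcer1a were not well above background in any fraction. The sum of 6 CD206-high macrophage markers, Mrc1 among them, had the same order of fractions as Retnla and Glul. It was 485 and 302 in Fr3, 75.8 and 35.8 in Fr2 and 10.1 and 6.66 in Fr1. Its step from Fr2 to Fr3 was larger than that of Retnla, which was 1.86-fold. The sum of 8 macrophage markers overlapped between Fr3 and Fr2 and was lower in Fr1. The part of these 2 lists in the levels of Retnla and Glul was not tested either.

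**Figure D5:**
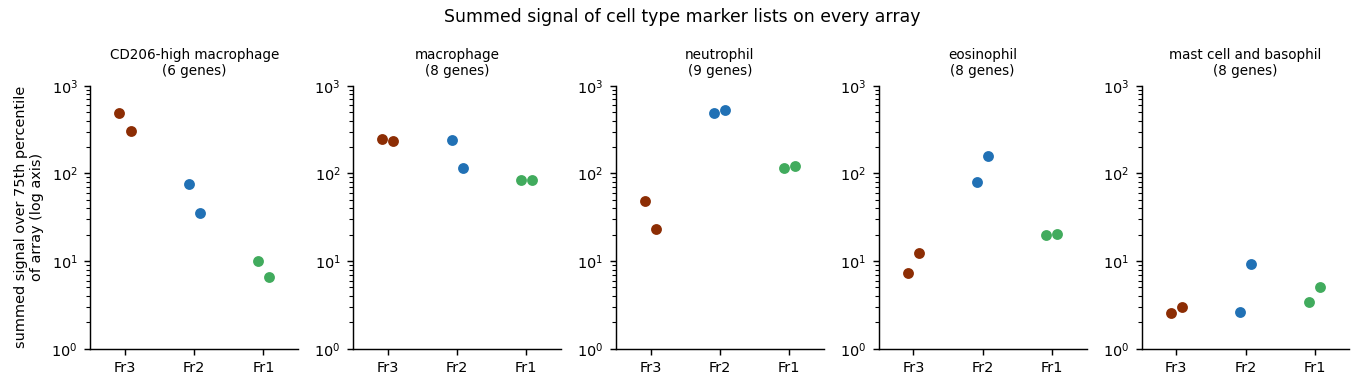
Summed signal of marker lists on the 6 arrays, in multiples of the array's 75th percentile on a log axis (y axis), in Fr3, Fr2 and Fr1 (x axis); each point is an array. The neutrophil and eosinophil lists are highest in Fr2, and the CD206-high macrophage list is highest in Fr3.

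The promoters of these secreted products were read from RefSeq's table (build GRCm38.p6), which held 6 of the 10 genes and 7 start sites, over the 250 bases before each start. They are shown for Retnla and Chil3, which encode products of the same activation state and differed in distribution. Capitals mark TTC and GAA set 4 bases apart, the spacing STAT6 prefers, TTC and GAA set 3 bases apart, the spacing of other STAT proteins, and TTGCNNAA, a C/EBP pattern, each searched on both strands; no 2 of these matches overlap in the windows shown.
Retnla, chr16:48842359-48842608, plus strand: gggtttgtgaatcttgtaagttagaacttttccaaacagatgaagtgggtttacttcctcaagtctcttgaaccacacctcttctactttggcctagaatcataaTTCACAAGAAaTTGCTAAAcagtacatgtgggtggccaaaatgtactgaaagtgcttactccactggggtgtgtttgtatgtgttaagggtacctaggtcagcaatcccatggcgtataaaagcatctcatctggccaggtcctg
Chil3, chr3:106167565-106167814, minus strand: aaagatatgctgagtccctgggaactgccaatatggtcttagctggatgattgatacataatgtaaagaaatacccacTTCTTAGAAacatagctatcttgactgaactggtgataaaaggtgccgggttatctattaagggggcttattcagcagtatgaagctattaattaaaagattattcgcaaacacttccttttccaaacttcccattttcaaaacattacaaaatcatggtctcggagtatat
The Retnla window held TTCACAAGAA, 145 bases before the start, with TTGCTAAA 1 base further on. The Chil3 window held TTCTTAGAA, 172 bases before the start, and the Socs3 window held the same 9 letters 154 bases before its start. The first Il1rl1 start site had TTGCATAA 34 bases before it. Of 32851 promoters of that length, 5.9% held the 4-base spacing, 7.0% held the 3-base spacing and 9.6% held TTGCNNAA. These matches describe letters only.

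The enzymes of arginine metabolism were Arg1 and Nos2. Arg1, which splits arginine into ornithine and urea, read −4.17 and −3.71 in Fr3, −4.94 and −4.9995 in Fr2 and −4.46 and −3.14 in Fr1 and was not well above background on any array, so no level or fold is given. Its probe has 26.7% T. Nos2, which makes nitric oxide from arginine (chr11:78773567-78773626, plus strand), was well above background on all 6 arrays. It read −0.28 and 0.97 in Fr3, −0.98 and 0.18 in Fr2 and 0.02 and 0.50 in Fr1, with overlap between all fractions. Fr3 minus Fr1 was 0.09 ± 0.70 (adjusted p = 0.990, limma; 95% interval −1.59 to 1.77), Fr3 minus Fr2 was 0.74 ± 0.70 (adjusted p = 0.713, limma) and Fr2 minus Fr1 was −0.65 ± 0.70 (adjusted p = 0.802, limma). Fr3 minus Fr1 turned to −0.54 without the second Fr3 array and to −0.15 without the first Fr1 array.

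Of 21 other tested genes of arginine, nitric oxide and polyamine metabolism 0 were called. Arrays did not overlap for 11 higher and 3 lower in Fr3 than in Fr1, for 9 and 3 against Fr2, and for 7 higher and 4 lower in Fr2 than in Fr1, with medians of 0.74, 0.33 and 0.27. The unadjusted p was under 0.05 (limma) for 3 genes higher and 0 lower in each comparison. Over all genes 35.7%, 42.1% and 44.8% did not overlap, and 8.12%, 8.92% and 9.79% were under that p (limma). Slc7a7, a carrier that exports cationic amino acids, read 3.72 and 2.16 in Fr3, 2.87 and 0.52 in Fr2 and −0.75 and 0.31 in Fr1, and Fr3 minus Fr1 was 3.16 ± 0.97 (adjusted p = 0.433, limma). Ddah2, which clears methylated arginines that inhibit nitric oxide synthases, was not well above background in Fr1 and at least 4.29-fold higher in Fr2 (adjusted p = 0.373, limma), and its relative Ddah1 was higher by 2.87 ± 0.80 in Fr3 than Fr2 (adjusted p = 0.349, limma). Arg2, the mitochondrial arginase, was well enough above background to be tested, at −0.45 and 0.09 in Fr3, −0.51 and −0.50 in Fr2 and −2.24 and −0.11 in Fr1.

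Glul encodes glutamine synthetase, which makes glutamine from glutamate and ammonia. Its probe from base 1062 read 3.53 and 4.82 in Fr3, 1.82 and 1.97 in Fr2 and 0.62 and 1.23 in Fr1. No fractions overlapped, and the order was Fr3, Fr2, Fr1. Fr3 minus Fr1 was 3.25 ± 0.64, or 9.51-fold (adjusted p = 0.238, limma), Fr3 minus Fr2 was 2.28 ± 0.64, or 4.85-fold (adjusted p = 0.358, limma), and Fr2 minus Fr1 was 0.97 ± 0.64 (adjusted p = 0.653, limma). Without the first Fr3 array Fr3 minus Fr1 was 3.90 and passed (adjusted p = 0.0215, limma).

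The other Glul probes placed Fr3 highest as well. The probe from base 2718 read 2.37 and 1.79 in Fr3, 0.98 and 0.45 in Fr2 and 0.45 and −0.58 in Fr1, with Fr3 above Fr1 by 2.14 and above Fr2 by 1.36. The probe from base 408 was well above background in Fr3 alone, at −1.98 and −1.63 in Fr3, −4.17 and −4.93 in Fr2 and −2.76 and −2.62 in Fr1, which put Fr3 at least 2.21-fold above Fr2 and at least 1.37-fold above Fr1. The probes from bases 1062, 2718 and 408 have 25%, 41.7% and 23.3% T, and on them the second Fr3 array read 1.29, −0.58 and 0.34 relative to the first. With the mean of all kept probes Fr3 minus Fr1 was 2.09 and Fr2 minus Fr1 was −0.036. That mean takes in the probe from base 408, which was not well above background in Fr2 or Fr1. At the probes from bases 1062 and 2718 Fr2 lay above Fr1, by 0.97 and 0.78.

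Of 9 other tested genes of glutamine and glutamate metabolism 0 were called. Arrays did not overlap for 4 higher and 0 lower in Fr3 than in Fr1, for 2 and 1 against Fr2, and for 3 higher and 1 lower in Fr2 than in Fr1, with medians of 0.68, 0.57 and 0.29. The unadjusted p was under 0.05 (limma) for 2 genes higher in Fr3 than in Fr1 and for 0 in the other comparisons. Shares over all genes were 35.7%, 42.1% and 44.8% for no overlap and 8.12%, 8.92% and 9.79% at that p (limma). The mitochondrial aspartate aminotransferase gene Got2 was closest to Glul in pattern among the 107 pathway genes compared, at 0.63 log2. It read 0.70 and 1.99 in Fr3, 0.16 and 0.66 in Fr2 and −0.90 and −0.28 in Fr1. Its Fr3 minus Fr1 difference was 1.94 ± 0.66 (adjusted p = 0.504, limma). Gclc, a subunit of the enzyme that starts glutathione synthesis from glutamate, was higher by 3.31 ± 1.36 in Fr3 than Fr1 (adjusted p = 0.600, limma), with 1 of 2 Fr1 arrays well above background.

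Tgm2 encodes tissue transglutaminase, a protein cross-linking enzyme that human and mouse macrophages make more of under IL-4. It went the other way from Retnla between Fr3 and Fr1. Its probe (chr2:157942275-157942334, minus strand) read −0.21 and −0.39 in Fr3, 3.52 and 5.17 in Fr2 and 3.40 and 3.84 in Fr1. Both Fr3 arrays lay below all 4 others, and Fr2 and Fr1 overlapped. Fr3 minus Fr1 was −3.92 ± 0.69, or 0.0660-fold (adjusted p = 0.197, limma; 95% interval −5.58 to −2.27), and Fr3 minus Fr2 was −4.64 ± 0.69 (adjusted p = 0.125, limma). With normexp and quantile normalization they were −2.58 and −2.99955. Fr2 minus Fr1 was 0.72 ± 0.69 (adjusted p = 0.775, limma) and turned to −0.11 without the second Fr2 array.

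Tgm2 was called for Fr3 minus Fr2 under other settings: at −4.64 where probes had to exceed background on all arrays (adjusted p = 0.0427, limma), at −4.64 with probes over 30% T left out (adjusted p = 0.0422, limma), and at −4.74 without the first Fr3 array (adjusted p = 0.0286, limma). Without that array Fr3 minus Fr1 was −4.02 and passed as well (adjusted p = 0.0354, limma). Its probe has 26.7% T and differed by −0.19 between the second and first Fr3 arrays. Another transglutaminase gene ran opposite to it: F13a1, the A subunit of coagulation factor XIII, read 8.19 and 7.44 in Fr3, 4.97 and 4.31 in Fr2 and 1.80 and 1.89 in Fr1. Its Fr3 minus Fr1 difference was 5.97 ± 0.58 (adjusted p = 0.0851, limma). Of 4 other tested transglutaminase genes 0 were called, with arrays that did not overlap for 2 higher and 0 lower in Fr3 than in Fr1, for 3 and 1 against Fr2, and for 2 higher and 1 lower in Fr2 than in Fr1, with medians of 0.88, 1.70 and 0.03. At an unadjusted p under 0.05 (limma) there were 2 higher and 0 lower in Fr3 than in Fr1, 3 and 0 against Fr2, and 1 higher and 1 lower in Fr2 than in Fr1. Over all genes 35.7%, 42.1% and 44.8% did not overlap, and 8.12%, 8.92% and 9.79% were under that p (limma). Among the 107 pathway genes compared, the closest to Tgm2 in pattern was Ptgs2, the inducible cyclooxygenase, at 1.20 log2. Genes listed only as cell type markers were not compared.

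Beside these genes stood the wider lists of the 2 activation states. Of 21 other tested alternative activation genes 0 were called, and arrays did not overlap for 11 higher and 2 lower in Fr3 than in Fr1, for 7 and 2 against Fr2, and for 10 higher and 2 lower in Fr2 than in Fr1, with medians of 1.19, 0.91 and 0.74. The unadjusted p was under 0.05 (limma) for 9 higher and 2 lower in Fr3 than in Fr1, for 5 and 1 against Fr2, and for 7 higher and 1 lower in Fr2 than in Fr1. Mrc1, which the sort itself selected on, was one of them. For this list and the next, the shares of all genes that did not overlap were 35.7%, 42.1% and 44.8% in the 3 comparisons. At an unadjusted p under 0.05 (limma) those shares were 8.12%, 8.92% and 9.79%. Rnase2a, a secreted ribonuclease, read 4.16 and 3.50 in Fr3, 3.94 and 3.53 in Fr2 and −0.31 and −2.31 in Fr1. Of 14 other tested classical activation genes 0 were called, and arrays did not overlap for 4 higher and 7 lower in Fr3 than in Fr1, for 1 and 7 against Fr2, and for 6 higher and 4 lower in Fr2 than in Fr1, with medians of −0.63, −0.76 and 0.18. The unadjusted p was under 0.05 (limma) for 1 higher and 4 lower in Fr3 than in Fr1, for 0 and 5 against Fr2, and for 2 higher and 1 lower in Fr2 than in Fr1. Il12b, the shared subunit of IL-12 and IL-23, was not well above background in Fr3 and at least 10.01-fold lower there than in Fr1 (adjusted p = 0.144, limma), while the cytokine gene Il6 was 2.59 ± 0.72 for Fr3 minus Fr1 (adjusted p = 0.390, limma) and read 3.14 and 3.38 in Fr3, 3.51 and 1.75 in Fr2 and 0.97 and 0.37 in Fr1.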

How the data were processed

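RNA from Fr3, Fr2 and Fr1 cells was amplified with a whole-transcriptome kit and labelled with Cy3, per the labels' protocols. Per the file headers, the authors' spot intensity values (processed signal) come from Agilent Feature Extraction 11.5.1.1, with background subtracted. The value table that the authors deposited is in log2; its column medians ran from −2.43 to −2.25 and it correlated with the scanner values at r of at least 0.9999, so it served as an alternative. Array depth cannot be counted; 2 arrays a fraction limit the precision, and no exact permutation p for 2 against 2 can go below 0.333.

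Control spots (leaving 59305 spots and 56605 probes) and 4 probes with outlier flags were left out, spots of a probe were averaged, and log2 signals were set relative to each array's 75th percentile. A probe was kept (27867 were) if both replicates of some fraction had it well above background, and a gene was read by its brightest kept probe. Differences were fitted with limma 3.58.1 in R 4.3.3 (lmFit, eBayes, 3 fraction means over 6 arrays), with two-sided Benjamini-Hochberg adjusted p-values over all genes; the fit was tested on simulated data. Symbols came from RefSeq's table by accession for 32992 probes, symbol for 10223 and synonym for 520, and otherwise from the files (12866). Figures and tables were made in Python 3.11.15. The genes and lists were chosen with earlier results of these data known. Besides all 10 genes and the sort antigens, the text names close paralogs, some of the up to 2 genes per list and comparison with the largest differences that did not overlap, and those nearest in pattern. Cd200 was named after its values were seen. Alternatives were other normalizations, filters, probe summaries, a T limit, the replicate block, 1 slide alone and each array left out.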

Additional observations from a re-analysis of the deposited data

How the results depend on the processing

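Over the alternatives, 375 of the values for single genes and comparisons kept their direction and side of the threshold, 15 changed sign and 9 passed where they had not, some of these in fits with 1 array in a fraction. Many of the 375 could not have changed direction, since the setting left the estimate itself as it was. This held with no filter, with every kept probe on its own, with the replicate block and with an array of the third fraction left out. Those settings could move only the side of the threshold. For Fr3 minus Fr1, 1 gene of all was called; 0 were with normexp, with no filter, with every kept probe on its own, with the replicate block or with only the 4 arrays of 1 slide, 12 with probes over 30% T left out, and 0 to 1476 with 1 array left out. For Fr3 minus Fr2, 1 gene was called, against 2 with normexp, 9 where probes had to exceed background on all arrays, 56 with probes over 30% T left out, 0 with the replicate block and 0 to 988 with 1 array left out. For Fr2 minus Fr1, 0 genes were called, against 3 with probes over 30% T left out and 0 to 13 with 1 array left out. The highest counts came without the first Fr3 array (13 also without the second), and the cause was not tested. The F-test over 3 fractions called 1 gene, and 0 with the replicate block.

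Among the 10 genes, sign changes came with the mean of all kept probes (Il4ra, Fr3 minus Fr1, 0.62; Glul, Fr2 minus Fr1, −0.036). With 1 array left out, Fr3 minus Fr1 ran from −0.54 to 0.71 for Nos2, −0.48 to 1.34 for Chil3, −0.54 to 0.067 for Cd200r1, −0.55 to 0.37 for Il4ra and −0.25 to 0.96 for Il1rl1. Fr3 minus Fr2 ran from −0.91 to 1.12 for Socs3, and Fr2 minus Fr1 from −0.11 to 1.54 for Tgm2 and −0.51 to 1.52 for Socs3. Genes not overlapping for Fr3 minus Fr1 numbered 3, and 5 to 7 with 1 Fr3 array left out (of all genes, 46.2% higher and 28.3% lower without the first, 29.9% and 35.3% without the second), an alternative chosen after seeing the data.

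The replicate numbers mark independent experiments but are not stated to be shared between fractions; deviations of same-numbered arrays correlated at 0.118 (Fr2 and Fr1), 0.433 (Fr3 and Fr1) and 0.0458 (Fr3 and Fr2), so they were not taken as pairs, and the replicate block called 0 of the 9 tested genes. Slide as a block could not be fitted, since Fr2 lies on its own slide. Levels of dim probes (Arg1 throughout, Cd200r1 outside Fr2, Chil3 outside Fr2) are limited by background.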
